A study of Mus musculus with 14 samples.

Results

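The response of the basal, stem cell-enriched epithelium of the mouse mammary gland to pregnancy was described from 7 of the 14 arrays of the series. These were the arrays whose titles name MaSC-enriched cells (MaSC, mammary stem cell), 4 from mice at day 12.5 of pregnancy and 3 from virgin mice. The animals were female FVB/NJ mice with no stated genetic change, and their ages are not given. Mammary glands were digested to single cells, cells carrying CD45, CD31 or TER119 were left out, and the MaSC-enriched population was sorted as CD29-high and CD24-positive. The other 7 arrays held CD29-low, CD24-positive luminal cells from 4 pools of pregnant and 3 pools of virgin mice. They served for comparison, and also entered the shared estimate of spread behind each SE and p-value of MaSC-enriched cells. Each array was hybridised with RNA from a pool of animals, sorted at a stated purity above 90%, with up to 250 ng of RNA amplified per array. The number of animals per pool is not given in the sources used here, and whether the pools of different numbers came from separate sorts is not stated, so the p-values measure the spread between these samples. The gate holds mature myoepithelial cells and basal progenitors together with the much rarer stem cells, so a level on these arrays is that of the mixture, and fewer cells of a kind cannot be told apart from less RNA per cell.

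The mammary epithelium has an inner luminal layer, from which the milk-secreting alveolar cells arise, and an outer basal layer of contractile myoepithelial cells that rests on the basement membrane. Transplanted basal cells can regrow a whole gland, which is why the CD29-high gate is called stem cell-enriched. In pregnancy, progesterone and prolactin act on luminal cells that carry their receptors. Those cells release RANK ligand and WNT4, which act on neighbouring basal and luminal cells, while prolactin acting through STAT5 and the factor ELF5 turns on the milk genes of alveolar cells. Basal cells lack most of the hormone receptors themselves.

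Levels are given as log2 of background-corrected, quantile-normalized intensity, on which background lay near 5 and the highest value was 14.96, so levels above about 14 are compressed. Values are listed in the order of replicates 1 to 3 for virgin and 1 to 4 for pregnant MaSC-enriched cells, and a difference is pregnant minus virgin with its moderated standard error (SE). A gene "rose" or "fell" where its p-value from limma, adjusted by the Benjamini-Hochberg method over the 20906 tested probes, was below 0.05. Where no array of a group detected a probe, the fold is given as "at least", against the lowest signal that counted as detected. A level given as a percentage of the luminal level is the ratio of the means of the populations in the same state, turned back from the log2 scale.

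The MaSC-enriched arrays detected 37.4% to 42.3% of probes. Virgin arrays differed more among themselves (median SD per probe 0.44, correlations of 0.908 to 0.941) than pregnant arrays (median SD 0.24, correlations of 0.977 to 0.988). Pregnant replicates 1, 2 and 3 were on 1 chip that held no virgin array of this gate, and each virgin array was on a different chip. The difference in spread can therefore not be told apart from the layout of the chips. Virgin replicate 3 stood apart with a lower Krt5 (9.84 against 12.58 and 12.49) and a lower median of fibroblast markers (8.0 against 9.86 and 9.53), and virgin replicate 2 had the highest adipocyte marker median (8.37 against 5.91 and 5.69). The basal identity of the gate was clear against the luminal arrays: Krt5 in virgin cells was at least 62.8-fold above luminal cells, no array of which detected it, and Trp63 and Snai2 stood at 9853% and 6959% of luminal levels detected in 2 of 3 virgin arrays. Virgin replicate 3 and pregnant replicate 4 shared a chip, which no other arrays of this gate from opposite states did. In that pair 96 of the 172 named genes differed from the value over all arrays by more than the spread between replicates (1 SD). A difference of 2 single arrays varies more than 1 array does, and the pair holds virgin replicate 3, which stood apart. The count is therefore no measure of a chip effect. The median difference of several lists departed in that pair, from 0.15 to 0.73 for dissociation stress genes and from 1.34 to 2.22 for mitotic genes. Others are given beside their lists.

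Pregnancy changed the level of 934 probes (4.47% of those tested), 520 higher (2.49%) and 414 lower (1.98%). Taken per gene, 576 of 11350 passed (5.07%): 316 rose (2.78%) and 260 fell (2.29%). Of these, 262 rises and 222 falls were larger than 2-fold, and 14 rises and 18 falls were larger than 8-fold. The virgin and pregnant arrays did not overlap for 566 of the 576 genes, against 1868 of all genes tested (16.5%). In the pair on the shared chip, 575 of the 576 differed in the called direction. Both arrays of this pair helped to make the calls. For the 566 genes without overlap the direction in any pair was fixed, so the count is no separate check.

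The number of calls rested partly on single arrays. Without virgin replicate 2, 1100 probes were higher and 871 lower. Without pregnant replicate 2 the counts were 272 and 212, without replicate 3 they were 316 and 260, and without replicate 4 they were 311 and 255. A total of 264 genes (2.33%) passed in the fit on all arrays and again without each MaSC-enriched array in turn, 146 of them higher and 118 lower. The balance of rises and falls also moved with the scaling: 250 probes were higher and 381 lower when arrays were scaled to a common median, under which the median difference of all genes was -0.07 in place of 0.03. Counts for short gene lists were less firm still. In 38 of 51 lists, leaving out 1 MaSC-enriched array moved a count (rises or falls) by over 1.5 times, or to or from 0. A count moved in this way in 25 lists without virgin replicate 2, and in 32 with chip as a block. List counts are to be read beside the shares over all genes, 2.78% higher and 2.29% lower.

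Some rises and falls were of genes higher in luminal cells and some of genes higher in MaSC-enriched cells. This division was made after the values were seen. It uses the pregnant luminal level for rises and the virgin luminal level for falls. Each is an end of the luminal change, so the luminal counts and medians below lean with the division and are no separate evidence. Among the 316 rises, 134 were of genes higher in pregnant luminal than in pregnant MaSC-enriched cells, and 182 were of genes higher in MaSC-enriched cells. The first set rose by a median of 1.36 in MaSC-enriched cells and 1.58 in luminal cells, and 90 of its genes also rose in luminal cells while 0 fell (adjusted p below 0.05 in the same fit). Among all genes, 21.6% changed in luminal cells, 10.9% higher and 10.7% lower. The second set rose by a median of 1.43 against 0.21 in luminal cells, where 49 rose and 18 fell. Among the 260 falls, 88 were of genes higher in virgin luminal cells, of which 70 also fell in luminal cells and 0 rose. The other 172 were higher in virgin MaSC-enriched cells, with a median change of -1.46 there and -0.17 in luminal cells.

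**Figure D1:**
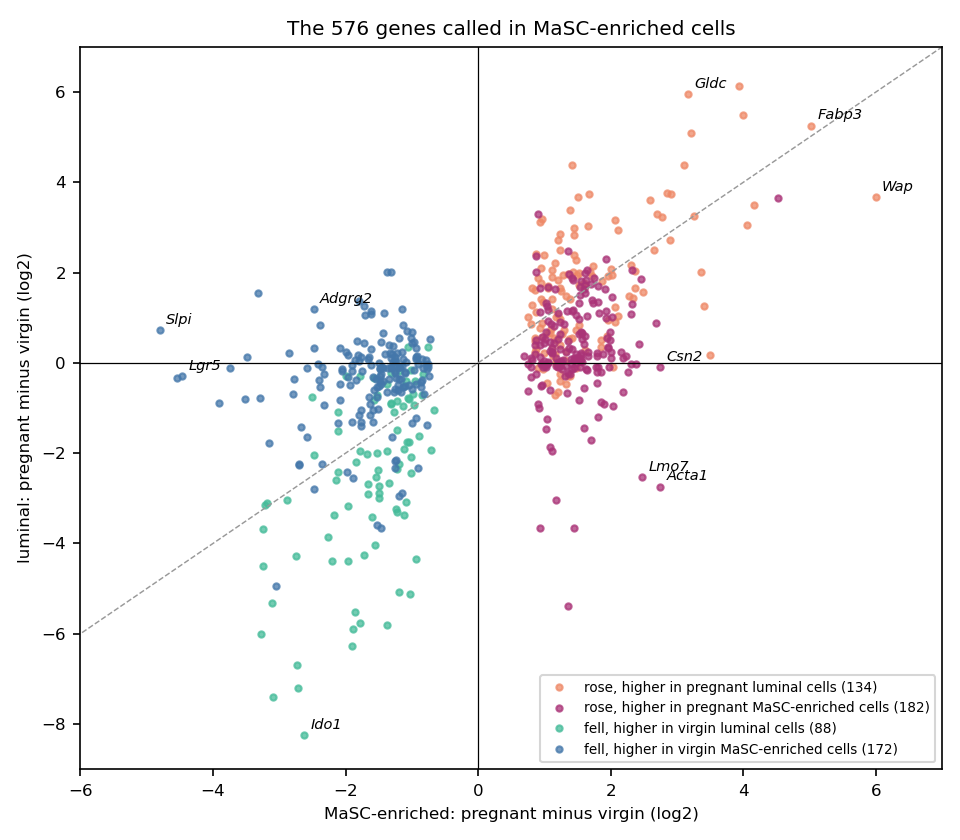
Each point is a gene that changed in MaSC-enriched cells, placed by its pregnant minus virgin difference there (horizontal, log2) and in luminal cells (vertical, log2); colours give the population with the higher level, and the dashed line marks equal change. The 88 falls of genes higher in virgin luminal cells lie mostly below 0 on the vertical axis. The 172 falls of genes higher in virgin MaSC-enriched cells have a luminal median of -0.17. The luminal level that divides the sets is also an end of the vertical value.

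Luminal markers are the values to read beside the luminal-side sets. The luminal keratins and general luminal markers had a median level in MaSC-enriched cells of 12% of the luminal level in virgin mice and 18.8% in pregnant mice. Their median change was 0.02 in MaSC-enriched cells and -0.77 in luminal cells, so the percentage moved with the luminal level. Krt18 was at 12% and 16.7% of its luminal level, and Krt19 at 6.47% and 12.2%. In MaSC-enriched cells themselves Krt18 and Krt19 differed by 0.02 and 0.08 without passing. The summed intensity of the 19 tested luminal markers was 20864 to 44037 on virgin and 26312 to 40527 on pregnant MaSC-enriched arrays. On luminal arrays it was 140079 to 157296 in virgin and 100603 to 119136 in pregnant mice. The part that luminal cells within the gate had in these results was not tested.

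Milk protein genes rose together. Of 12 tested, 9 rose and 0 fell, with a median difference of 2.26 against 0.03 for all genes. Wap, whey acidic protein, read 7.66, 8.07 and 6.48 in virgin and 13.73, 13.83, 13.07 and 12.97 in pregnant MaSC-enriched cells. Every pregnant array lay far above every virgin array, a difference of 6.0 (SE 0.52, adjusted p = 2.69e-05), or 64-fold. Wap stood at 8.35% of its luminal level in virgin and 41.8% in pregnant mice.

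Glycam1, a mucin-like protein of milk, read 10.73, 9.70 and 9.27 in virgin and 14.26, 14.63, 14.41 and 14.42 in pregnant arrays. The groups were far apart, with a difference of 4.53 (SE 0.98, adjusted p = 0.0165), although the gene did not pass without virgin replicate 3 (adjusted p = 0.0524). Wfdc18, another secreted protein with a whey acidic protein domain, read 10.43, 9.50 and 11.70 against 14.37, 14.33, 13.51 and 13.95. It rose by 3.50 (SE 0.41, adjusted p = 0.000169), while its luminal level was already near the top of the scale in virgin mice.

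The caseins, the main milk proteins, began from high virgin levels. Csn2, beta-casein, read 11.33, 11.18 and 12.70 in virgin and 14.14, 14.47, 14.59 and 14.71 in pregnant arrays, a difference of 2.74 (SE 0.31, adjusted p = 0.000144). Csn1s1, an alpha-casein, read 11.74, 12.03 and 12.36 against 13.75, 14.28, 14.33 and 14.53 and rose by 2.18 (SE 0.25). Pregnant values of both lay at the compressed top of the scale, above all virgin values. Csn3, kappa-casein, rose by 1.44 (SE 0.23) and Csn1s2b by 2.11 (SE 0.31), the latter detected in 1 of 3 virgin arrays.

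Pigr, the receptor that carries antibodies into milk, rose by 3.10 (SE 0.43), and Cel, a milk lipase, by 2.34 (SE 0.34). Pigr was detected in 1 of 3 virgin arrays and Cel in 2 of 3. Lalba, alpha-lactalbumin of lactose synthesis, did not pass, at 5.77, 6.95 and 6.26 against 7.73, 7.38, 6.28 and 5.98. Csn1s2a was as uneven, at 9.58, 8.87 and 5.28 against 10.20, 8.91, 6.68 and 7.32, and for both genes the groups overlapped. No probe carried the name of Prlr, the prolactin receptor, so it was not analysed here.

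STAT5, the factor through which prolactin acts, binds motifs of the form TTCNNNGAA, and the milk promoters are shown because these genes moved together. This motif reads the same on both strands, and was searched in the 250 bases before the start of each gene in RefSeq's promoter table (GRCm38.p6). It occurred in 2306 of 32851 promoters (7.02%). Of the 9 milk genes that rose, 7 had a promoter in the table and 3 of these held a match, Csn2, Csn1s1 and Glycam1. No match was found in the window of Wap, Wfdc18, Cel or Pigr. The 3 windows follow, 5′ to 3′ on the gene's strand with the match in capitals: Csn2 at chr5:87699426-87699675 on the minus strand, Csn1s1 at chr5:87665958-87666207 on the plus strand, and Glycam1 at chr15:103565082-103565331 on the minus strand.
Csn2: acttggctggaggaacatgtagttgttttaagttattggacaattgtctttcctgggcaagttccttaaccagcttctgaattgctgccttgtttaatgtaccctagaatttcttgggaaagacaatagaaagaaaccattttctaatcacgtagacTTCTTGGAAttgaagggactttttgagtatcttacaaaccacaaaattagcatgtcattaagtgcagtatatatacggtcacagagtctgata
Csn1s1: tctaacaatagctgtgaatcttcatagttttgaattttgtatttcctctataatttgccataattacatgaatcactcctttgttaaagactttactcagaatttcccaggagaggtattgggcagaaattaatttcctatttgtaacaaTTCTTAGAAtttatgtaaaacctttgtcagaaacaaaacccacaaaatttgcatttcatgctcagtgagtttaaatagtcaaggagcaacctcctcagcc
Glycam1: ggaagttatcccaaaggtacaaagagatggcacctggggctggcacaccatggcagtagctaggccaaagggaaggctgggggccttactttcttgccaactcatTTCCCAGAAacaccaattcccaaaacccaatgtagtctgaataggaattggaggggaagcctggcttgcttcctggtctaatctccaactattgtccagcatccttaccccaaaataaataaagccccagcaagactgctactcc
The matches lay 93 to 85 bases before the start in Csn2, 100 to 92 in Csn1s1 and 145 to 137 in Glycam1. A match of letters is a description of the sequence and not a measure of binding.

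Among 15 tested regulators of the alveolar programme, 2 rose and 0 fell. Cited4, a transcriptional co-activator, read 6.4, 6.90 and 6.15 in virgin and 10.71, 11.15, 10.21 and 10.11 in pregnant arrays. The groups were wide apart, and the difference of 4.06 (SE 0.34, adjusted p = 1.76e-05) amounted to 16.7-fold. Elf5, the ETS factor that drives alveolar differentiation, read 7.16, 8.47 and 7.85 against 11.80, 11.82, 10.56 and 10.77. It rose by 3.41 (SE 0.44, adjusted p = 0.000376), and by 2.15 more than in luminal cells (adjusted p = 0.0489). Even so, Elf5 in pregnant MaSC-enriched cells stood at 19.6% of its luminal level, up from 4.41%.

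Of 30 tested genes of lipid synthesis and milk fat secretion, 6 rose and 0 fell, with a median difference of 0.29. Fabp3, a fatty acid carrier of muscle and mammary epithelium, read 7.41, 6.77 and 7.70 against 12.59, 12.91, 11.78 and 12.02. Its rise of 5.03 (SE 0.56, adjusted p = 0.000132) was 32.7-fold, beside a luminal rise of 5.26. Thrsp, a regulator of fatty acid synthesis, rose by 4.00 (SE 0.51) from detection in 1 of 3 virgin arrays, and by 4.68 without virgin replicate 2. Plin2, a coat protein of lipid droplets, rose by 2.36 (SE 0.34), and Lpin1, a phosphatase of triglyceride synthesis, by 1.96 (SE 0.33). Btn1a1, butyrophilin of the milk fat globule, rose by 1.86 and did not pass without virgin replicate 1 or pregnant replicates 1 or 2 (adjusted p from 0.0523 to 0.071). Cidea, another lipid droplet protein, rose by 1.23 and did not pass without virgin replicates 1 or 3 or pregnant replicates 1 or 2 (0.062 to 0.0875). The synthetic enzymes themselves did not pass, with differences of 0.32 for Fasn, 0.28 for Acly and 0.50 for Scd1.

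Further large rises were of genes with higher luminal levels. Gjb2 and Gjb6, which encode gap junction connexins, rose by 3.26 (SE 0.65) and 3.93 (SE 0.74). Gjb2 read 9.30, 6.13 and 9.86 in virgin and 12.07, 12.28, 10.98 and 11.42 in pregnant arrays, so virgin replicate 2 was the low one. Without that array the rises were 2.11 and 3.33, and without virgin replicate 3 they were 3.97 and 4.61. Bcl2l15, a relative of the BCL2 apoptosis regulators, rose by 4.17 (SE 0.46), and by 4.82 without virgin replicate 3.

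Muc15, a mucin of the milk fat globule membrane, rose by 3.36 (SE 0.46), Ubd, a ubiquitin-like modifier, by 2.85 (SE 0.48) and Tenm4, a teneurin, by 2.70 (SE 0.29). Several genes were detected in no virgin MaSC-enriched array and in all 4 pregnant ones. Gldc, of the mitochondrial glycine cleavage system, was at least 5.68-fold higher (adjusted p = 5.07e-05), and Sftpd, surfactant protein D, at least 4.69-fold (adjusted p = 0.00128). Atp13a4, a P-type ATPase, was at least 4.56-fold higher (adjusted p = 6.24e-05). Gldc and Atp13a4 stood at 6.72% and 8.86% of their luminal level in pregnant mice.

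A different set of rises was of genes that luminal cells held at low levels. Ntrk3, the receptor tyrosine kinase for neurotrophin-3, read 9.61, 8.74 and 9.39 in virgin and 11.50, 11.88, 11.54 and 11.78 in pregnant arrays. No values overlapped, and the difference was 2.43 (SE 0.23, adjusted p = 3.88e-05), which exceeded the luminal change by 2.02 (adjusted p = 0.00116). Its pregnant level was at least 56.2-fold above that of luminal cells, no array of which detected it. Spock3, a secreted proteoglycan, read 7.85, 7.57 and 8.28 against 10.21, 10.14, 10.12 and 10.07, with the pregnant arrays almost alike, and rose by 2.23 (SE 0.21). Ncam1, a neural cell adhesion molecule, read 9.33, 9.72 and 9.24 against 11.52, 11.60, 11.65 and 11.65 and rose by 2.18 (SE 0.28).

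Fbxl22, an F-box protein of the sarcomere in muscle, rose by 2.68 (SE 0.34) and the phosphatase gene Ppm1l by 2.26 (SE 0.33). Egr4, an early growth response factor, rose by 2.46 (SE 0.49), and by 1.66 without virgin replicate 3, where it read 7.80 against 10.29 and 10.09. Alx4, a homeobox factor, rose by 2.30 (SE 0.26) from detection in 1 of 3 virgin arrays. Cabs1, a calcium-binding protein described in sperm, was detected in no virgin array and was at least 2.79-fold higher (adjusted p = 0.000122). Ntrk3, Spock3, Ncam1, Fbxl22, Ppm1l, Egr4, Alx4 and Cabs1 were picked for description after their values were seen.

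The actin and adhesion genes Acta1 and Lmo7 rose in MaSC-enriched cells and fell in luminal cells. Lmo7, a LIM-domain protein of cell junctions, read 5.79, 5.59 and 5.12 in virgin and 7.46, 8.08, 8.11 and 8.26 in pregnant arrays, detected in 2 of 3 virgin arrays. It rose by 2.48 (SE 0.27, adjusted p = 9.51e-05) with no overlap, while no pregnant luminal array detected it, at least 3.85-fold below virgin luminal cells. Acta1, skeletal muscle actin, rose by 2.75 (SE 0.61), detected in 2 of 3 virgin arrays, and did not pass without pregnant replicate 4 or virgin replicate 3 (adjusted p = 0.0524 and 0.0712). Other skeletal muscle markers gave no rise: of the 5 tested Schwann cell and muscle markers, Acta1 alone was higher, and Ckm, Myh4 and Myh1 were not detected often enough to be tested.

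Smaller rises that held without each MaSC-enriched array in turn included Cdkn1c, Egln3 and Lama1. Cdkn1c, the cyclin-dependent kinase inhibitor p57, read 10.14, 11.47 and 10.59 against 12.17, 12.48, 12.69 and 12.93 and rose by 1.83 (SE 0.29). All pregnant arrays lay above all virgin ones. Egln3, a prolyl hydroxylase of the hypoxia pathway, rose by 1.55 (SE 0.23), and Lama1, the alpha-1 chain of laminin, by 1.35 (SE 0.24) to 13.24 or more on each pregnant array.

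**Figure D2:**
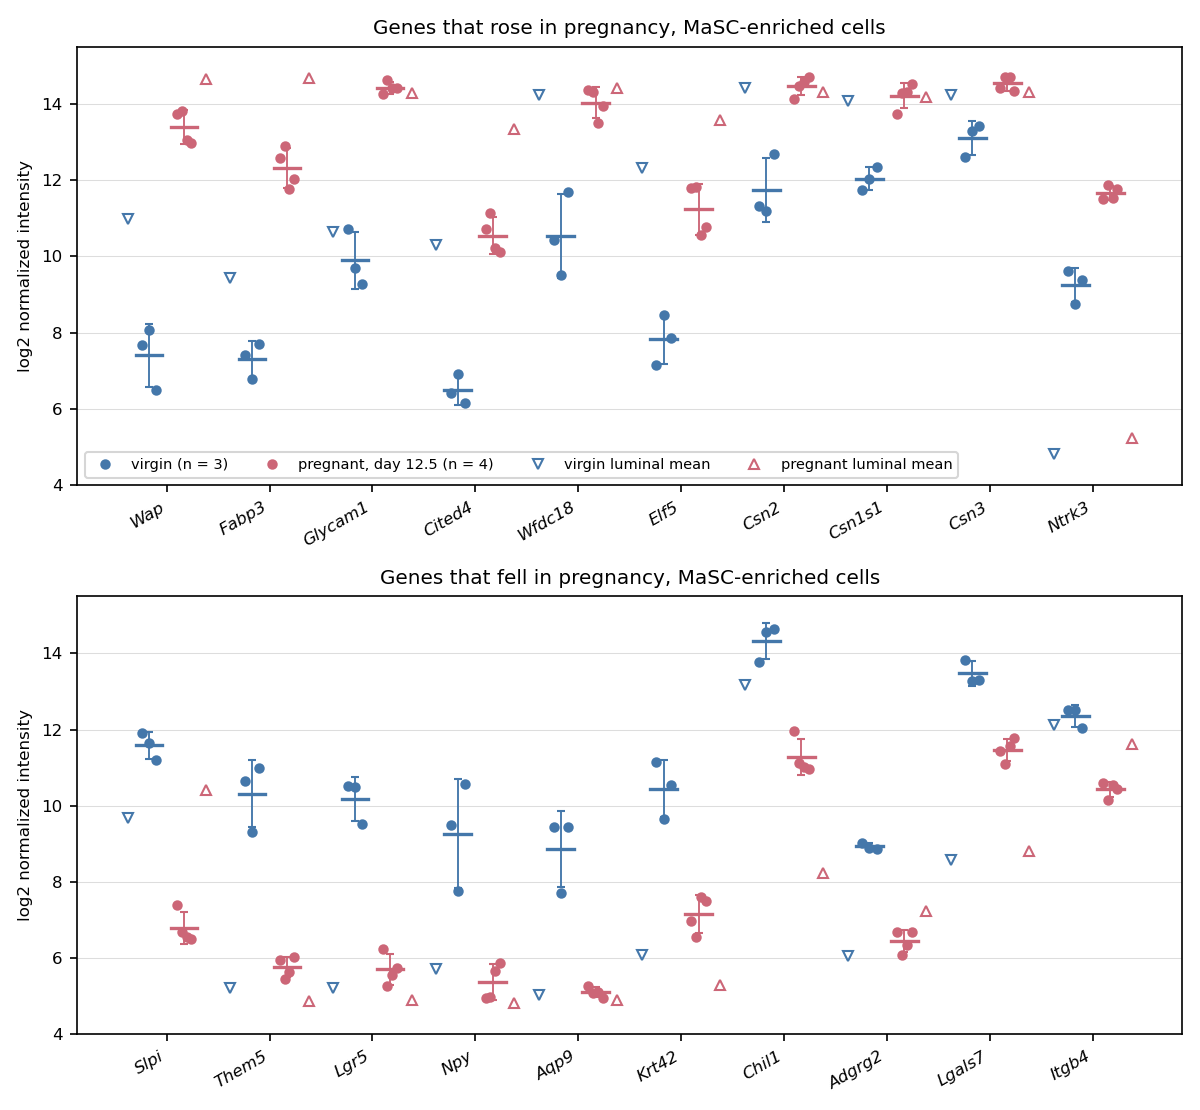
Log2 normalized intensity of genes that rose (top) and fell (bottom); filled points are single arrays of virgin (blue, n = 3) and pregnant (red, n = 4) MaSC-enriched cells with mean and SD, and open triangles are luminal group means. Wap, Fabp3 and Cited4 remained below their pregnant luminal means, whereas Ntrk3, Them5, Lgr5 and Krt42 were far above the luminal means where they were high.

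Falls on the basal side were led by Slpi, Them5 and Lgr5. Slpi, a secreted leukocyte protease inhibitor, read 11.92, 11.64 and 11.21 in virgin and 7.4, 6.69, 6.55 and 6.51 in pregnant arrays. The groups were separated by more than 3 log2 units, and the fall of 4.80 (SE 0.36, adjusted p = 9.34e-06) was 27.9-fold. In luminal cells Slpi differed by 0.73 in the other direction without passing, and the responses of the populations differed by -5.53 (adjusted p = 1.32e-05). Its level went from 376% of the luminal level to 8.12%.

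Lgr5, an R-spondin receptor that marks stem cells of several epithelia, read 10.52, 10.50 and 9.51 in virgin and 6.24, 5.26, 5.56 and 5.75 in pregnant arrays. It was detected in all virgin arrays and in 1 of 4 pregnant arrays, and fell by 4.47 (SE 0.27, adjusted p = 1.51e-06). The pair on the shared chip differed by -3.76. Them5, a mitochondrial acyl-CoA thioesterase, read 10.65, 9.31 and 10.98 against 5.94, 5.46, 5.62 and 6.03 and fell by 4.55 (SE 0.33), with 2 of 4 pregnant arrays above detection.

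Npy, neuropeptide Y, read 9.50, 7.75 and 10.56 against 4.95, 4.97, 5.67 and 5.86, detected in 2 of 4 pregnant arrays, and fell by 3.91 (SE 0.50). The virgin arrays were spread, and the fall was 4.67 without virgin replicate 2 and 3.26 without replicate 3. Aqp9, a channel for water and glycerol, read 9.43, 7.70 and 9.44 against 5.27, 5.07, 5.10 and 4.96. No pregnant array detected it, so it was at least 9.14-fold lower (adjusted p = 3.64e-05). Tmem114, a membrane protein related to claudins, was likewise detected in no pregnant array and was at least 4.33-fold lower (adjusted p = 4.51e-05).

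Bnc1, basonuclin of basal keratinocytes, and Cntn2, a contactin of the nervous system, had the same spread among virgin arrays. Bnc1 fell by 3.52 (SE 0.67), by 4.51 without virgin replicate 2 and by 2.45 without replicate 3. Cntn2 fell by 3.49 (SE 0.47), by 4.30 without virgin replicate 2 and by 2.90 without replicate 3. Serpinb11, a serpin, fell by 3.32 (SE 0.55) from 12.92, 11.21 and 12.49, and Map1b, a microtubule-associated protein, by 3.16 (SE 0.40).

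Chil1, a secreted chitinase-like protein, was among the brightest genes in virgin cells, at 13.77, 14.55 and 14.65. It read 11.97, 11.12, 11.03 and 10.96 in pregnancy, lower on every array, and fell by 3.05 (SE 0.28, adjusted p = 3.79e-05), less than the luminal change of -4.95. Adgrg2, an adhesion G protein-coupled receptor, read 9.02, 8.90 and 8.87 against 6.68, 6.09, 6.34 and 6.68, tight in both groups. It fell by 2.48 (SE 0.19, adjusted p = 9.34e-06) while its luminal level rose by 1.19 (adjusted p = 0.000384), so the responses were opposite.

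Another set of falls was of genes with higher virgin luminal levels, with a median change of -1.49 where the luminal median was -2.36. The virgin luminal level that defines this set is also an end of its luminal change. Ptprz1, a receptor phosphatase, read 8.83, 7.89 and 8.26 in virgin and 5.32, 4.98, 5.01 and 5.01 in pregnant arrays, none of which detected it, at least 6.34-fold lower (adjusted p = 1.66e-05). Clic6, a chloride channel-like protein, fell by 3.28 (SE 0.34) and Clip4, a microtubule-binding protein, by 3.11 (SE 0.41), each detected in 1 of 4 pregnant arrays. Their luminal changes were -6.01 and -5.32. Fxyd6, a modulator of the sodium pump, fell by 3.21 (SE 0.31) and Wfdc2, a secreted protein with whey acidic protein domains, by 2.88 (SE 0.29), both about as far as in luminal cells (-3.15 and -3.03).

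Tspan8, a tetraspanin, read 8.12, 10.65 and 8.77 against 6.28, 5.87, 5.75 and 5.87. It fell by 3.24 (SE 0.46) and by 2.50 without virgin replicate 2, the highest array. Cldn10, a claudin that forms ion-selective pores, fell by 3.19 (SE 0.44) and by 2.55 without the same array. Hp, haptoglobin, was detected in no pregnant array and was at least 4.92-fold lower (adjusted p = 3.64e-05). Fam25c, at least 5.26-fold lower, and the tryptophan-degrading enzyme gene Ido1, at least 3.15-fold lower, stood at 3.07% and 1.88% of the luminal level in virgin mice. In pregnant mice luminal Fam25c was detected in 2 of 4 arrays and luminal Ido1 in none, at least 146-fold below virgin luminal cells.

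Few genes of the basal programme were called, at a share near that of all genes. Of 19 tested basal keratins and transcription factors, 0 rose and 1 fell (5.26%, against 5.07% of all genes changed in either direction), with a median difference of 0.09 (-0.09 under median scaling). Of 17 tested contractile genes 0 passed in either direction, with a median of 0.28, but 2 rose without virgin replicate 2, 1 rose without virgin replicate 1, and 2 rose with chip as a block (median 0.41). At an unadjusted p below 0.05 in limma, 3 contractile genes were higher and 2 lower. Krt14 read 14.15, 14.25 and 14.41 in virgin and 14.27, 14.36, 14.34 and 14.50 in pregnant arrays, and Acta2, smooth muscle actin, 14.41, 14.39 and 14.53 against 14.58, 14.67, 14.56 and 14.60. Both lay at the top of the scale, where a change would be compressed. The member that fell was Lgals7, galectin-7 of stratified epithelia, at 13.84, 13.28 and 13.30 against 11.43, 11.10, 11.58 and 11.79, with no overlap (difference -2.0, SE 0.36, adjusted p = 0.00448).

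Trp63, the master factor of basal epithelium, read 12.75, 13.82 and 12.22 in virgin and 13.84, 13.32, 13.44 and 13.42 in pregnant arrays, overlapping groups with a difference of 0.58 (SE 0.49). Snai2, a factor of the basal state, differed by 0.35 (SE 0.32) and Krt17 by -0.16 (SE 0.44). Krt5 read 12.58, 12.49 and 9.84 against 11.03, 10.98, 11.31 and 11.29, so the size of its difference rested on virgin replicate 3. With all arrays it did not pass (difference -0.49, SE 0.48), and without that replicate it fell by 1.38 (adjusted p = 0.00243). The pair on the shared chip, which holds that replicate, differed by 1.45, and with chip as a block the difference was 0.17. With virgin replicate 2 left out, 2 basal genes rose and 2 fell, and 2 fell without virgin replicate 3 or with chip as a block.

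The contractile genes Myh11, Tagln and Cnn1 differed by 0.31, 0.42 and 0.20 without passing. Des, desmin, showed the largest contractile difference, at 10.83, 8.96 and 7.10 against 6.57, 8.60, 8.10 and 5.91. The groups overlapped (difference -1.67, adjusted p = 0.226), and it passed without virgin replicate 3 (-2.60, adjusted p = 0.036). The sorting antigens did not pass either: Cd24a differed by 0.62 (SE 0.32), Itgb1, which encodes CD29, by -0.05 (SE 0.26), and Itga6 by 0.23 (SE 0.27).

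**Figure D3:**
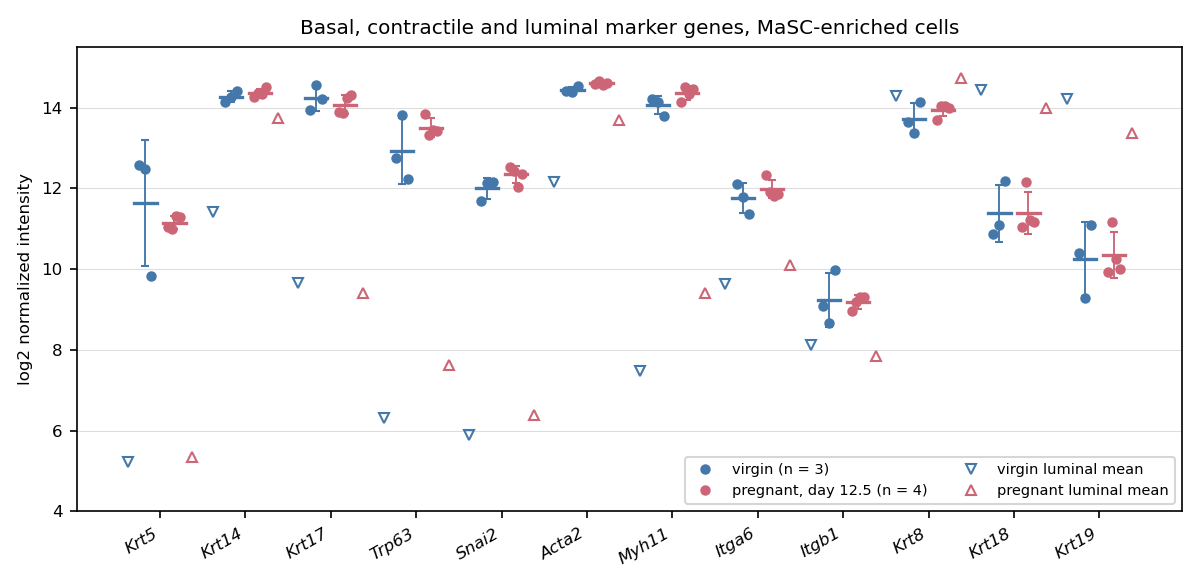
Log2 normalized intensity of basal, contractile and luminal marker genes; filled points are virgin (blue, n = 3) and pregnant (red, n = 4) MaSC-enriched arrays with mean and SD, and open triangles are luminal group means. Krt14, Acta2 and Myh11 sit near 14 in both states, the virgin Krt5 values run from 9.84 to 12.58, and Krt18 and Krt19 lie below their luminal means.

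Luminal markers moved in both directions. Of 19 tested, 1 rose and 4 fell (21.1%, against 2.29% of all genes), with a median difference of 0.02 (-0.15 under median scaling and -0.74 in the pair on the shared chip), against -0.77 in luminal cells. Krt8 read 13.64, 13.38 and 14.14 in virgin arrays and from 13.70 to 14.05 in pregnant arrays. Krt18 read 10.87, 11.08 and 12.19 against 11.03, 12.16, 11.22 and 11.16. Both overlapped, and virgin replicate 3 and pregnant replicate 2 had the most Krt18.

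Cldn3, a claudin of tight junctions, rose by 1.61 (SE 0.29) and Elf3, an epithelial ETS factor, fell by 1.05 (SE 0.18). Aldh1a3, an aldehyde dehydrogenase of luminal progenitors, fell by 1.78, and by 1.08 without virgin replicate 3, and did not pass without that array or any 1 pregnant array (adjusted p from 0.0655 to 0.095). Cyp24a1, which degrades vitamin D, fell by 1.12 and did not pass without virgin replicate 3 or pregnant replicates 2, 3 or 4 (0.061 to 0.0917). Spint1, a protease inhibitor, fell by 1.06 and did not pass without any 1 pregnant array, virgin replicates 1 or 3, or several luminal arrays (0.0542 to 0.145). Without virgin replicate 3 the luminal list had 4 rises and 1 fall, and 1 or 2 falls without any 1 pregnant array.

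Hormone-sensing luminal markers had low medians, 6.23 to 7.22 on virgin and 5.4 to 5.79 on pregnant arrays. Pgr, the progesterone receptor, was detected in 0 of 3 virgin and 1 of 4 pregnant arrays. Not all members were low: summed intensities were 4952 to 6248 on virgin and 4301 to 5673 on pregnant arrays. Luminal sums were 20249 to 28509 in virgin and 2418 to 3631 in pregnant mice. Of 9 tested, 0 rose and 2 fell, with a median difference of -0.51. With chip as a block neither passed (adjusted p = 0.0626 for Foxa1 and 0.061 for Cited1) and the median was -0.09, and in the pair on the shared chip it was -0.02. Foxa1, the pioneer factor of oestrogen receptor cells, read 6.84, 7.67 and 8.04 in virgin arrays and was detected in no pregnant array, at least 3.62-fold lower (adjusted p = 0.00485). Cited1, a co-activator of the same cells, was at least 1.86-fold lower (adjusted p = 0.00894). Esr1, the oestrogen receptor, read 7.54, 7.68 and 7.31 against 7.06, 6.45, 6.72 and 6.88, lower on every pregnant array but short of the threshold (difference -0.74, adjusted p = 0.0527), and it passed without pregnant luminal replicate 4 (adjusted p = 0.0402). Foxa1 and Cited1 stood at 2.76% and 2.36% of their luminal level in virgin cells.

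Of 19 tested genes that serve as stem cell markers in mammary or other epithelia, 0 rose and 4 fell, with a median difference of -0.16 (-0.67 in the pair on the shared chip). Lgr5 and Tspan8 are described above. Aldh1a1, an aldehyde dehydrogenase, read 7.41, 6.46 and 6.61 against 5.63, 5.31, 5.24 and 5.14, detected in 1 of 4 pregnant arrays, and fell by 1.5 (SE 0.25). Procr, the protein C receptor, read 7.47, 6.33 and 7.26 against 5.74, 6.08, 6.0 and 5.52 and fell by 1.19 (SE 0.31, adjusted p = 0.0408). The Procr call was lost without any 1 pregnant array, virgin replicates 1 or 3, or 4 of the luminal arrays in turn (adjusted p from 0.0515 to 0.118). Axin2, a Wnt feedback gene, differed by -0.83 (SE 0.29, adjusted p = 0.134) with overlapping groups.

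Mitotic genes rose together. Of 21 tested, 11 rose and 0 fell, 20 had a positive difference, and the median was 1.34, near the 1.40 of luminal cells. Kif2c, a kinesin of chromosome segregation, read 8.22, 7.56 and 6.67 in virgin and 9.34, 9.25, 9.28 and 9.82 in pregnant arrays, a rise of 1.94 (SE 0.31, adjusted p = 0.0019) with no overlap. Cdk1, the mitotic kinase, read 10.16, 8.76 and 8.43 against 10.78, 11.06, 10.54 and 10.99 and rose by 1.72 (SE 0.35). Bub1b, of the spindle checkpoint, rose by 1.64 (SE 0.33).

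These 3 were the list members that passed without each MaSC-enriched array in turn. The count was 4 without pregnant replicate 2, pregnant replicate 4 or virgin replicate 3, 3 with median scaling, and 2 with chip as a block or with the 7 MaSC-enriched arrays alone. Plk1, polo-like kinase, rose by 1.49 and did not pass without virgin replicate 3 or pregnant replicates 2, 3 or 4 (adjusted p from 0.0528 to 0.0961). Virgin replicate 1 had the highest mitotic median of the virgin arrays (8.76 against 8.19 and 8.15), and the pregnant medians ran from 9.36 to 9.82. Outside the list, the mitotic genes Kif20b and Troap rose by 2.32 (SE 0.39) and 2.32 (SE 0.34), each detected in 2 of 3 virgin arrays.

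Genes of DNA replication shifted less: 23 of 26 had a positive difference, against 6007 of all 11350 genes, with a median of 0.45 (-0.09 with chip as a block). Of these genes 0 passed (5 were higher at an unadjusted p below 0.05 in limma), and 3 passed without virgin replicate 1. Mcm3, of the replicative helicase, had the largest difference (0.93, SE 0.39, adjusted p = 0.219). Of 46 tested histone genes, 12 rose, by 1.04 to 1.39, where 2.78% of all genes rose. These were 8 H2B genes (H2bc4, H2bc6, H2bc7, H2bc9, H2bc11, H2bc12, H2bc14 and H2bc15) and 4 H4 genes (H4c1, H4c6, H4c9 and H4c17). The H2A and H3 genes did not pass. Histone genes of a class are nearly identical, so probes may not tell them apart, and the 12 may not be separate rises. Among 20 tested G1 cyclins and cell cycle inhibitors, the rise was of the inhibitor Cdkn1c, and 0 fell.

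**Figure D4:**
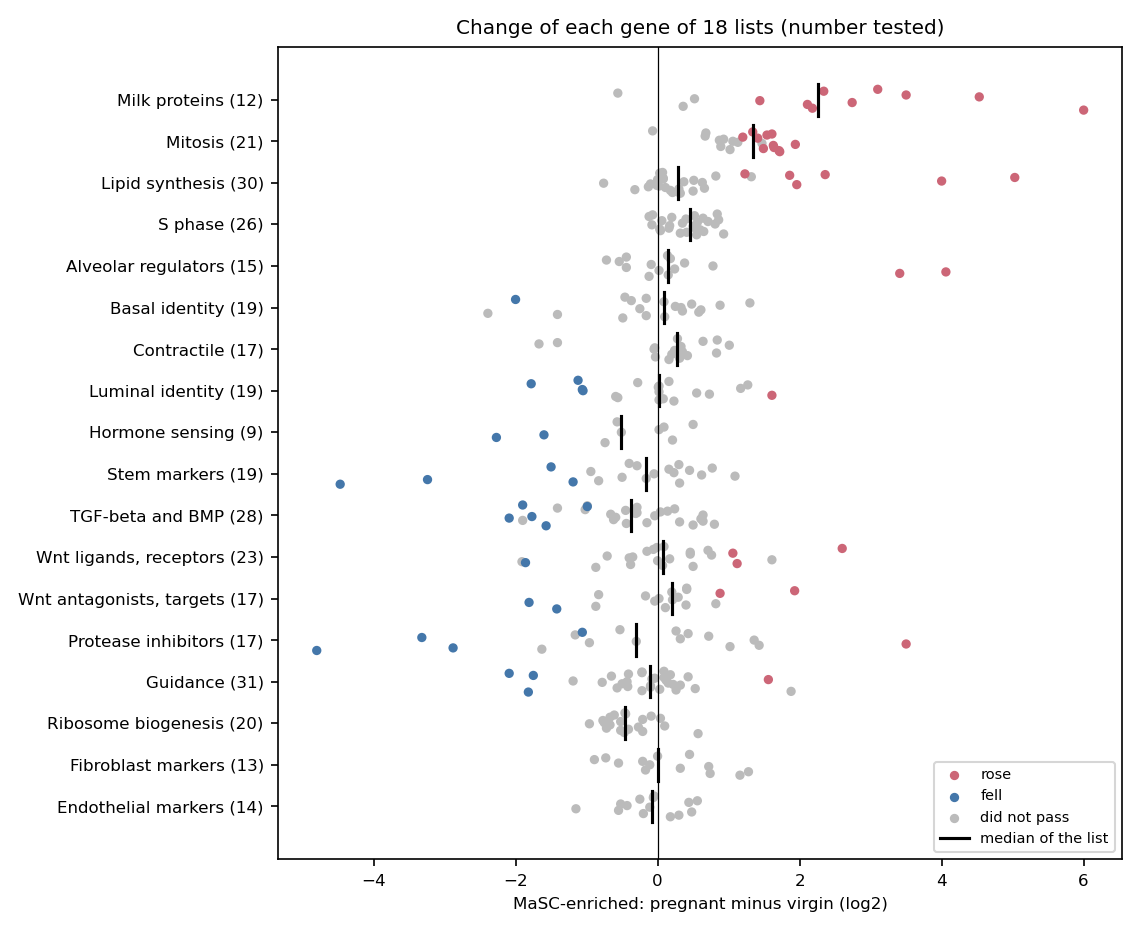
Pregnant minus virgin difference (log2) of each tested gene of 18 lists in MaSC-enriched cells, with the number tested in brackets; red points rose, blue points fell, grey points did not pass, and black bars are medians. Milk protein and mitosis genes lie mostly to the right of 0 (medians 2.26 and 1.34), and basal and contractile genes centre near 0 (medians 0.09 and 0.28).

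Among the signals that pass between luminal and basal cells, the receptor of RANK ligand rose. Tnfrsf11a, which encodes RANK, read 9.62, 9.48 and 8.88 in virgin and 10.64, 10.98, 10.66 and 10.50 in pregnant arrays, with no overlap, a difference of 1.37 (SE 0.26, adjusted p = 0.00716). It did not pass under median scaling. Its ligand gene Tnfsf11 differed by 0.09 (SE 0.36) in MaSC-enriched cells while rising by 3.69 in luminal cells, so that its MaSC-enriched level went from 70% of the luminal one, detected in 2 of 3 virgin arrays of each population, to 5.77%. No other of the 17 tested RANK and NF-kB genes passed with all arrays.

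Of 23 tested Wnt ligands, receptors and agonists, 3 rose (13%) and 1 fell (4.35%), against 2.78% and 2.29% of all genes. Without virgin replicate 2, 6 rose and 2 fell. Rspo1, an R-spondin that strengthens Wnt signals through LGR receptors, read 5.08, 5.01 and 5.59 in virgin arrays, none of which detected it, and 7.41, 8.35, 7.54 and 8.01 in pregnant arrays, at least 4.51-fold higher (adjusted p = 0.00513). Its pregnant level was 14.6% of the luminal one. Fzd9, a Frizzled receptor, was at least 1.19-fold higher from no detection in virgin arrays (adjusted p = 0.00331). Wnt6 rose by 1.12 and did not pass without virgin replicate 3 or pregnant replicates 3 or 4 (adjusted p from 0.061 to 0.07). Wnt7b was detected in no pregnant array and was at least 1.95-fold lower (adjusted p = 0.00513).

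Of 17 tested Wnt antagonists, feedback genes and TCF factors, 2 rose and 2 fell (11.8% each). Sfrp1, a secreted Wnt inhibitor, read 10.57, 11.60 and 10.62 against 9.10, 9.29, 9.64 and 10.01 and fell by 1.42 (SE 0.28, adjusted p = 0.00866), while its luminal level rose by 1.11. Nkd2, an intracellular inhibitor, fell by 1.81 (SE 0.29). Sostdc1, an inhibitor of Wnt and BMP signals, rose by 1.93, and by 1.30 without virgin replicate 3, and did not pass without that array or pregnant replicates 1, 2 or 3 (adjusted p from 0.0509 to 0.0691). Tcf7l1, a TCF repressor, rose by 0.88 and did not pass without virgin replicate 3 or pregnant replicates 2, 3 or 4 (0.0503 to 0.0659).

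In the TGF-beta, activin and BMP list, 0 of 28 rose and 5 fell, with a median of -0.37, and 8 fell with chip as a block. Tgfb1, the ligand, read 8.68, 8.15 and 9.39 against 7.49, 7.30, 7.06 and 6.84 and fell by 1.57 (SE 0.27, adjusted p = 0.00389). Fstl3, a follistatin-like antagonist of activin, fell by 2.09 (SE 0.43), Bmp4 by 1.77 (SE 0.38), and Ltbp3, which stores latent TGF-beta in the matrix, by 0.99 (SE 0.19). Tgfbi, a TGF-beta-induced matrix protein, fell by 1.90 and did not pass without virgin replicates 1 or 3, pregnant replicates 2, 3 or 4, or 3 of the luminal arrays in turn (adjusted p from 0.0521 to 0.116).

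Of 16 tested insulin-like growth factor genes, 1 rose and 2 fell, all of them near the threshold. The binding protein Igfbp2 rose by 1.93 and did not pass without any 1 pregnant array, virgin replicate 2 or a luminal array, pregnant replicate 3 (adjusted p from 0.0504 to 0.0913). Igfbp3 fell by 1.18 and did not pass without any 1 pregnant array, virgin replicates 1 or 3, or 3 of the luminal arrays in turn (0.0528 to 0.16). Stc2, stanniocalcin-2, fell by 1.38 and did not pass without virgin replicates 2 or 3 or pregnant replicates 1, 2 or 3 (0.0537 to 0.106).

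Of 13 tested FGF genes, Etv5, an ETS factor induced by FGF receptors, rose. It read 9.95, 10.15 and 9.10 in virgin and 11.72, 11.55, 11.65 and 11.63 in pregnant arrays, all above the virgin values, and rose by 1.90 (SE 0.29, adjusted p = 0.00128). Its luminal level fell by 0.92 (adjusted p = 0.0357). No Notch or EGF family gene passed in limma (16 and 11 tested), although 2 Notch genes were higher and 2 lower, and 1 EGF family gene lower, at an unadjusted p below 0.05. Nrarp, a Notch feedback gene, differed by -1.39 (SE 0.52, adjusted p = 0.165). Hbegf, an EGF receptor ligand, differed by -2.11 (SE 0.80), overlapped between groups, and passed without virgin replicate 2 (-3.10, adjusted p = 0.0205).

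Among 28 chemokine and cytokine genes, 1 rose and 2 fell. Without virgin replicate 1, 3 rose, and without virgin replicate 2 or with chip as a block 2 rose and 4 fell, while 1 fell without virgin replicate 3. Il1b, interleukin-1 beta, was detected in no virgin array and was at least 2.91-fold higher (adjusted p = 0.000726). The 7 tested leukocyte markers had a median difference of 0.50 on the same arrays, and their part in the Il1b rise was not tested. Il33, an alarmin, read 8.37, 7.46 and 7.88 against 6.39, 5.52, 6.18 and 5.94 and fell by 1.90 (SE 0.33), with 3 of 4 pregnant arrays above detection. Cxcl15 was at least 2.09-fold lower and did not pass without virgin replicates 2 or 3 or any 1 pregnant array (adjusted p from 0.0523 to 0.125). Epha1, an ephrin receptor, rose by 1.56 (SE 0.25) as the single rise of 31 tested guidance genes (3.23%, near the 2.78% of all genes). In that list 3 rose without virgin replicate 2 and 2 with chip as a block.

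The guidance genes that fell were Slit2, Ntn4 and Sema3b (9.68% of the list, against 2.29% of all genes). Slit2, a ligand of ROBO receptors, read 10.18, 10.19 and 10.04 in virgin and 8.20, 8.22, 7.97 and 7.81 in pregnant arrays, both groups tight and far apart, and fell by 2.09 (SE 0.24, adjusted p = 0.000147). Ntn4, netrin-4, was detected in no pregnant array and was at least 2.57-fold lower (adjusted p = 0.00211). Sema3b, a semaphorin, fell by 1.82, and by 2.44 without virgin replicate 2, and did not pass without virgin replicates 1 or 3, any 1 pregnant array or a luminal one, pregnant replicate 3 (adjusted p from 0.0515 to 0.113).

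Adhesion to the basement membrane changed at single genes. Itgb4, the integrin subunit of hemidesmosomes, read 12.52, 12.52 and 12.03 in virgin and 10.59, 10.16, 10.54 and 10.43 in pregnant arrays. Every pregnant value was below every virgin one, and the fall of 1.93 (SE 0.20, adjusted p = 6.64e-05) was 3.81-fold and exceeded the luminal change by 1.43 (adjusted p = 0.00506). It was the single integrin or focal adhesion gene of 21 to fall, and 0 rose. In the laminin and hemidesmosome list of 24, Lama1 rose while Itgb4 and Lama5 fell. The Lama5 fall of 1.23 did not pass without virgin replicates 1 or 3 or pregnant replicates 1 or 2 (adjusted p from 0.0524 to 0.0719).

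In the stromal matrix list of 28, 1 collagen rose and 1 fell (3.57% each, near the 2.78% higher and 2.29% lower of all genes). Col9a1 rose by 1.53 (SE 0.32) and did not pass without virgin replicate 1 (adjusted p = 0.0529). Col8a1 read 8.87, 8.64 and 8.16 against 5.94, 6.26, 5.83 and 5.27, with 3 of 4 pregnant arrays above detection, and fell by 2.73 (SE 0.35, adjusted p = 0.000372). Plat, tissue plasminogen activator, was the matrix protease that fell, by 2.67 (SE 0.35) from 11.48, 11.12 and 11.07 to 8.28, 9.02, 8.63 and 8.27, and 3 genes of that list fell without virgin replicate 2 or 3. Of 17 secreted protease inhibitors, Wfdc18 rose and 4 fell, Slpi, Wfdc2, Serpinb11 and Spint1.

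In the junction list of 25 the rises were Gjb2, Gjb6 and Cldn3, and the fall was Cldn10. Keratins and cornified envelope genes of stratified epithelium had a median difference of -1.01, with 1 of 20 higher and 3 lower. Krt42, a type I keratin, read 11.14, 9.65 and 10.55 against 6.96, 6.54, 7.61 and 7.49 and fell by 3.29 (SE 0.41, adjusted p = 0.000276), or 9.81-fold. Ly6d, a surface antigen of keratinocytes, fell by 3.10 (SE 0.37), with 2 of 4 pregnant arrays above detection. Tgm1, transglutaminase 1, fell by 1.19 and did not pass without virgin replicates 1 or 3 or pregnant replicates 1, 2 or 3 (adjusted p from 0.0547 to 0.0708), and Krt23 rose by 0.93 and did not pass without virgin replicates 1 or 3 or any 1 pregnant array (0.06 to 0.111). Without virgin replicate 2, 7 genes of the list fell.

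Among YAP and SRF targets, Ankrd1, a mechanically induced ankyrin repeat protein, read 9.22, 9.65 and 7.26 against 6.06, 6.27, 6.11 and 6.53. It fell by 2.47 (SE 0.41), and by 3.19 without virgin replicate 3. Ccn1, a matricellular target of the same factors, rose by 1.54, and by 2.16 without virgin replicate 2, and did not pass without virgin replicates 1 or 3 or pregnant replicates 2, 3 or 4 (adjusted p from 0.0508 to 0.0861). Of 40 tested lineage factors, Barx2, a homeobox factor, rose by 1.72 (SE 0.35) at 11.5% of the pregnant luminal level, and Foxa1 fell. Each was 2.5% of the list, near the shares of all genes (2.78% higher and 2.29% lower).

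Of 27 tested ion and water transport genes 3 rose (11.1%) and 2 fell (7.41%), against 2.78% and 2.29% of all genes. Of 23 tested nutrient transporters 1 fell (4.35%). Car2, carbonic anhydrase 2, read 5.25, 5.17 and 6.43 against 8.34, 9.49, 8.12 and 8.08 and rose by 2.89 (SE 0.53), detected in 1 of 3 virgin arrays. Aqp5, a water channel, fell by 1.55 (SE 0.28) where the luminal change was -4.04. The phosphate transporter gene Slc34a2 was detected in no virgin and 3 of 4 pregnant arrays, was at least 1.71-fold higher, and did not pass without pregnant replicate 2 (adjusted p = 0.0541). Kcnn4, a potassium channel, rose by 1.87, and by 2.51 without virgin replicate 3, and did not pass without virgin replicates 1 or 2 or pregnant replicates 1 or 2 (0.0531 to 0.0815). Slc12a2, a chloride cotransporter, fell by 0.67 and did not pass without any 1 MaSC-enriched array (0.0557 to 0.121, over those and 4 of the luminal arrays). Slc7a8, an amino acid transporter, was at least 3.91-fold lower and did not pass without virgin replicates 1 or 3 or any 1 pregnant array (0.0576 to 0.0817). Its fitted difference was -3.39 without virgin replicate 2 and -1.58 without virgin replicate 3.

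Energy metabolism showed few calls. Of 27 tested oxidative phosphorylation genes 25 had a positive difference, against 6007 of all 11350 genes. Their median was 0.30 (0.13 under median scaling). Ppargc1a, a co-activator of mitochondrial genes, rose by 1.66 (3.7% of the list, near the 2.78% of all genes). The Ppargc1a call was lost without virgin replicate 1 or pregnant replicates 3 or 4 (adjusted p from 0.0532 to 0.0583). In the list of glycolysis and hypoxia genes Egln3 rose, and P4ha2, a collagen prolyl hydroxylase, fell by 1.38 and did not pass without virgin replicates 1 or 3 or any 1 pregnant array (0.0718 to 0.119). Of 20 ribosome biogenesis genes 17 had a negative difference, against 5343 of all 11350 genes. Their median was -0.47, from -0.78 without virgin replicate 2 to -0.19 without virgin replicate 3. In limma 0 passed, though 5 were lower at an unadjusted p below 0.05 and 6 fell without virgin replicate 2. Rrs1, a ribosome assembly factor, differed by -0.96 (adjusted p = 0.206) with all arrays and by -1.48 without virgin replicate 2 (adjusted p = 0.0176).

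Among glutathione peroxidases, Gpx3 fell by 1.84 (SE 0.31) from 10.91, 10.81 and 9.89 to 9.24, 8.41, 8.45 and 8.70, and Gpx2 fell by 1.62 (SE 0.29), detected in 3 of 4 pregnant arrays. They were 2 of 23 tested oxidative stress genes, and 4 fell without virgin replicate 2. Luminal Gpx2 rose by 1.08 (adjusted p = 0.0161). Of 21 ATF4 target genes, Vldlr, a lipoprotein receptor, rose by 1.14 and did not pass without virgin replicate 1 (adjusted p = 0.0521), and Stc2 fell, while 3 genes of the list rose without virgin replicate 3 and 2 fell without virgin replicate 2. Among 24 secretory pathway and unfolded protein genes 0 passed in limma (3 higher and 1 lower at an unadjusted p below 0.05), and the chaperone Calr differed by 0.85 (adjusted p = 0.159), or by 1.22 without virgin replicate 1 (adjusted p = 0.0329). Of 19 nuclear receptors 0 passed in limma (2 higher and 2 lower at an unadjusted p below 0.05), with Vdr, the vitamin D receptor, at -1.02 (adjusted p = 0.0941), passing without virgin luminal replicates 2 or 3 (0.0478 and 0.0133).

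Of 19 epithelial defence genes Pigr rose (5.26%, against 2.78% of all genes). Chil1 and the complement gene C4b fell (10.5%, against 2.29%). C4b read 10.39, 12.12 and 9.82 against 9.42, 7.42, 7.91 and 8.02 and fell by 2.58 (SE 0.51), or by 1.91 without virgin replicate 2. C4a is nearly identical to C4b and fell by 2.71, so their probes may share transcripts; it did not pass without virgin replicate 2 or pregnant replicates 2, 3 or 4 (adjusted p from 0.0719 to 0.0875). Of 20 interferon response genes Gbp3 rose by 0.91 and was lost without any 1 MaSC-enriched array but pregnant replicate 1, and without 5 of the luminal arrays in turn (0.052 to 0.135). Of 17 antigen presentation genes Psmb8, an immunoproteasome subunit, rose by 1.32 and did not pass without virgin replicate 3 or pregnant replicates 2, 3 or 4 (0.061 to 0.112).

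Markers of other cell types were checked on the same arrays. In the pair on the shared chip the median difference was 0.95 for fibroblast markers and -1.04 for endothelial markers, against 0.00 and -0.09 over all arrays. Fibroblast markers (13 tested) and endothelial markers (14) gave 0 calls in limma (1 fibroblast marker was higher and 1 endothelial marker lower at an unadjusted p below 0.05), with summed intensities of 21204 to 36591 on virgin and 28473 to 40091 on pregnant arrays for the first, and 7565 to 17880 and 5717 to 20174 for the second. Col3a1, a fibroblast collagen, differed by 1.28 (adjusted p = 0.392), Dcn, decorin, by 0.32 (adjusted p = 0.737), and Vwf, of endothelium, by -1.15 (adjusted p = 0.081), passing without virgin replicate 1 (-1.76, adjusted p = 0.000459). All 7 tested leukocyte markers had a positive difference, with a median of 0.50 (1.28 without virgin replicate 2, 0.81 with chip as a block and 1.0 in the pair on the shared chip) and summed intensities of 516 to 1224 on virgin and 1028 to 1544 on pregnant arrays. Of these, Cd3e of the T cell receptor rose by 1.57 and did not pass without pregnant replicates 2, 3 or 4 (0.0595 to 0.076), while 12 of 19 on the array, Ptprc and Cd3d among them, were not detected often enough to be tested.

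Adipocyte, pericyte, erythroid and nerve markers gave 3 calls besides Acta1. Lep, leptin, rose by 1.31 and did not pass without virgin replicate 3, pregnant replicates 1, 2 or 4, or 4 of the luminal arrays in turn (adjusted p from 0.0515 to 0.121). Adipoq, adiponectin, read 5.66, 9.57 and 5.12 against 6.57, 6.5, 6.11 and 5.82, and passed as higher without virgin replicate 2 (0.86, adjusted p = 0.0461). Mcam, an adhesion molecule of pericytes and smooth muscle, fell by 1.5 (SE 0.28) as the single call of 8 pericyte markers. Gfra3, a Schwann cell receptor, was at least 1.22-fold lower and did not pass without virgin replicate 3 or pregnant replicates 1, 3 or 4 (0.0628 to 0.0856). The erythroid gene Hba-a1 read 6.80, 10.42 and 9.99 against 11.62, 11.38, 10.49 and 10.02 without passing (adjusted p = 0.244). The part of these cells in the calls was not tested.

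Dissociation stress and housekeeping genes gave 0 calls in limma (23 and 13 tested), and at an unadjusted p below 0.05 1 stress gene was higher, 1 was lower and 0 housekeeping genes differed. Klf2, of the stress list, differed by 1.06 (adjusted p = 0.252) and Tfrc, of the housekeeping list, by -0.28 (adjusted p = 0.696).

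The response was also set directly against that of luminal cells, the difference of the differences in the same fit. At the level of probes 1564 passed (7.48%), 979 more positive (4.68%) and 585 more negative (2.8%) in MaSC-enriched cells. It passed for 978 genes (8.62%), 597 with a more positive (5.26%) and 381 with a more negative change (3.36%) in MaSC-enriched cells. Of the 576 genes that changed in MaSC-enriched cells, 207 also differed from the luminal response: 86 rose and 68 fell by more than in luminal cells or against them, 17 rose less and 36 fell less. The values compared share the pregnant and virgin MaSC-enriched arrays, so these counts are no separate evidence of the rises and falls.

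The largest positive difference, 6.75, was of Pcdha7, a protocadherin of a cluster whose members share exons. It rose by 1.36 in MaSC-enriched cells while no pregnant luminal array detected it, at least 27.8-fold below virgin luminal cells, and the rise did not pass without virgin replicates 1 or 3, any 1 pregnant array or 5 of the luminal arrays in turn (adjusted p from 0.0528 to 0.161). Alcam, an adhesion molecule, rose by 1.44 against a luminal change of -3.65, and its rise did not pass without virgin replicate 1 or pregnant replicates 2 or 4 (0.0514 to 0.0741). Nckap5 rose by 0.94 against a luminal change of -3.66 and did not pass without virgin replicates 1 or 3, any 1 pregnant array or 3 of the luminal arrays in turn (0.054 to 0.111). Lgi2, a secreted neuronal protein, was at least 1.99-fold lower against a luminal rise of 2.01, and did not pass without virgin replicate 3 or any 1 pregnant array (0.0639 to 0.134). Among the larger negative differences were those of Slpi (-5.53), Serpinb11 (-4.88), Them5 (-4.21) and Lgr5 (-4.18). These genes fell in MaSC-enriched cells with no luminal change past the threshold, and luminal changes short of it also enter the values.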

How the data were processed

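RNA of MaSC-enriched and luminal cells, each sorted from 4 pools of pregnant and 3 pools of virgin mice, was amplified and hybridised to 14 Illumina mouse BeadChip arrays. The deposited files hold summarised probe intensity and detection p-values, exported with BeadStudio per the submitters' processing notes, and a deposited log2 matrix. The matrix differed from the intensities processed here with an offset of 50 by a median of 0.00019. Detection p-values came from 943 negative control steps.

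Intensities were background-corrected (normexp, offset 16, background inferred from detection p-values), quantile-normalized and taken to log2 with limma 3.58.1 in R 4.3.3. Probes were tested where 3 or more arrays had a detection p-value under 0.05, which left 20906 of 45281 (46.2%). A model of 4 group means on 14 arrays was fitted with lmFit and eBayes (10 residual and 4.64 prior degrees of freedom). Tests were two-sided, with adjusted p below 0.05 called. A gene is its brightest tested probe, and 10378 probes without a symbol and 18 with several are unnamed. Of 221 called genes with several tested probes, 113 had another probe called the same way. With the mean of all tested probes of a gene, 517 of the 576 called genes stayed called. The script was tested on simulated data.

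The genes, lists and tests were chosen with earlier results of these data known. Named genes are the 20 largest non-overlapping rises and falls, members of each list past the threshold (the 5 largest stable ones where over 5 passed, the largest difference where 0 passed), the 8 largest differences from luminal cells in each direction, and 25 genes fixed by name. Others, such as the remaining milk genes, Hp, Kif20b, Troap and the markers Krt17, Krt19, Myh11, Tagln, Cnn1, Dcn and Adipoq, were added after their values were seen. Alternatives changed the background correction, scaling, filter, weights, blocks, probe choice and arrays used. Pregnant and virgin arrays come from different pools, so their numbers were not taken as pairs. Whether same-numbered MaSC-enriched and luminal arrays share a pool is not stated. The number of arrays limits the precision.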

Additional observations from a re-analysis of the deposited data

Results flagged for a closer look

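In 11 of 172 genes, 1 of the 4 pregnant MaSC-enriched arrays lay far from the other arrays of its group (gap over range above Dixon's 95% critical value for 4 samples). Chance gives about 1 in 20 groups. Pregnant replicate 1 was far off for C4a (10.10), Chil1 (11.97), Cxcl15 (5.39), Hbegf (7.26), Krt8 (13.70), Pgr (5.79) and Ptprz1 (5.32). Replicate 2 was far off for Ido1 (4.85) and Plin2 (11.40), and replicate 4 for Kif2c (9.82) and Klf2 (12.15).

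For 68 of the 172 genes the pregnancy response differed between the populations, by the limma test of the difference of the responses. Values below are the MaSC-enriched change minus the luminal change in log2 units. For 30 of them at least 1 of the 4 groups had no array with detection, so these values rest partly on readings at background (among them Pcdha7, Lmo7, Ido1, Pgr, Lgr5 and Ntrk3). Among adhesion, signalling and muscle genes with a positive difference were Pcdha7 (6.75), Acta1 (5.49), Alcam (5.10), Lmo7 (5.01), Nckap5 (4.60), Wnt7b (3.66), Etv5 (2.82), Ncam1 (2.82), Ppm1l (2.46), Alx4 (2.32), Spock3 (2.07), Ntrk3 (2.02), Fbxl22 (1.80), Epha1 (1.47) and Fzd9 (1.07). Milk and alveolar genes with a positive difference were Wfdc18 (3.33), Csn2 (2.84), Elf5 (2.15), Csn1s1 (2.07) and Csn3 (1.34). The luminal levels of the caseins and Wfdc18 sat near the top of the scale in both states, and the part of this in the difference was not tested.

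Positive differences of genes with a larger decrease in luminal cells were those of Ido1 (5.63), Fam25c (4.48), Stc2 (4.43), Il33 (4.37), Ly6d (4.31), Col8a1 (3.95), Clic6 (2.73), Cxcl15 (2.54), Aqp5 (2.49), Cyp24a1 (2.25), Clip4 (2.21), Chil1 (1.89), Cited1 (1.81) and Hp (1.52). Pgr (3.11), Dcn (2.64) and Esr1 (1.86) were not called in MaSC-enriched cells, where they differed by 0.21, 0.32 and -0.74. Cabs1, detected in no virgin MaSC-enriched array, gave 2.40.

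Negative differences of secreted, surface and keratin genes were those of Slpi (-5.53), Serpinb11 (-4.88), Them5 (-4.21), Lgr5 (-4.18), Adgrg2 (-3.67), Aqp9 (-3.64), Cntn2 (-3.61), Lgi2 (-3.38), Slc7a8 (-3.22), Tmem114 (-3.05), Npy (-3.01), Ankrd1 (-2.81), Krt42 (-2.51), Sema3b (-2.30), Lgals7 (-2.25), Krt14 (-2.21), Procr (-1.75), Slit2 (-1.62), Ntn4 (-1.56), Mcam (-1.50) and Itgb4 (-1.43). Signalling, metabolic and receptor genes gave Tnfsf11 (-3.60), Gldc (-2.77), Axin2 (-2.69), Gpx2 (-2.69), Tfrc (-2.61), Sfrp1 (-2.53), Vdr (-2.33), Nkd2 (-1.99) and Tcf7l1 (-1.50). Krt14 lay at the top of the scale in MaSC-enriched cells. Krt14, Tnfsf11, Axin2, Tfrc and Vdr were not called in MaSC-enriched cells, and Gldc and Tcf7l1 rose there.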

How the results depend on the processing

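None of the 576 called genes changed sign in 26 alternatives, and 237 to 561 of them stayed called. For the 566 genes without overlap, the sign was fixed in advance in the fits that left arrays out, weighted them or changed the filter. In those alternatives the kept sign is no separate check. The 520 higher and 414 lower probes became 213 and 185 with the 7 MaSC-enriched arrays alone, and 209 and 165 with array weights by group. They became 250 and 381 under median scaling, and 682 and 598 with chip as a block. Leaving out 1 array at a time gave 272 to 1100 higher and 212 to 871 lower. The MaSC-enriched counts moved by more than 1.5 times without virgin replicate 2 (up) and without pregnant replicates 2, 3 or 4 (down). The 979 positive and 585 negative differences from the luminal response became 808 and 270 under median scaling, and ran from 667 to 1497 and 371 to 1108 with 1 array left out. The extremes came without virgin MaSC-enriched replicate 2 and virgin luminal replicate 1, and without pregnant MaSC-enriched replicate 3 the negative count was 389. The causes were not tested. Deviations of same-numbered pregnant and virgin MaSC-enriched arrays correlated between -0.27 and 0.077. Those of same-numbered MaSC-enriched and luminal arrays correlated between 0.047 and 0.421 in virgin and between -0.165 and 0.091 in pregnant mice, so whether the populations are paired is not settled. With the replicate number as a fixed block 446 probes were higher and 369 lower, and with state and number as a random block (correlation 0.146) 517 and 414, with 1266 positive and 840 negative differences from the luminal response.

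Of the 172 named genes, 42 lost their call with the 7 MaSC-enriched arrays alone and 43 with array weights by group. With chip as a block 25 lost their call, among them Aqp5, Barx2, Bub1b, Cdk1, Cldn3, Foxa1 and Sfrp1. Directions that turned were of genes not called with all arrays. With chip as a block they were Adipoq (0.85), Col3a1 (-0.02), Dcn (-0.16), Krt17 (0.62), Krt18 (-0.10), Krt19 (-0.43) and Krt5 (0.17). With cyclic loess Krt18 was at -0.05 and Krt19 at -0.02, and with median scaling at -0.19 and -0.15. With 1 array left out, the values without virgin replicates 2 and 3 bounded the range of Adipoq (0.86 and -1.37), Itgb1 (-0.34 and 0.32), Krt19 (-0.40 and 0.50) and Tfrc (-0.61 and 0.19). Csn1s2a ran from -0.95 (without virgin replicate 3) to 1.20 (virgin replicate 1), Krt17 from -0.30 (virgin replicate 1) to 0.00 (virgin replicate 2), Krt18 from -0.24 (virgin replicate 1 or pregnant replicate 2) to 0.42 (virgin replicate 3) and Tnfsf11 from -0.09 (virgin replicate 2) to 0.20 (virgin replicate 1).

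Levels above about 14 are compressed and levels near 5 lie at background, so changes there are understated. The chips carried mostly 1 state of MaSC-enriched cells each, and 1 pair of arrays from opposite states shares a chip.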
